A study of Mus musculus with 12 samples.

Results

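The unfolded protein response and the integrated stress response were examined through 10 genes, Hspa5, Hsp90b1, Dnajb9, Herpud1, Xbp1, Atf4, Asns, Trib3, Chac1 and Ddit3. They were chosen by name, as rows of the deposited gene counts, and all 10 were among the 49315 genes listed and the 17416 genes with enough counts to be tested. The libraries came from primary mouse adult fibroblasts (MAFs), which were cultured from the ears of WT (wild-type) C57BL/6 mice and of Bmal1 -/- mice (KO), which lack the circadian transcription factor BMAL1 in the whole body. Cells of each genotype were sham irradiated (control) or were made senescent with 20 Gy of X-rays and a further period of culture. Every culture, in all 4 groups, was treated with 100 nM dexamethasone to synchronise its clock and was collected 12 h later. Each combination of genotype and treatment had 3 libraries.

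A cell's endoplasmic reticulum (ER) folds the proteins it secretes. When unfolded proteins build up there, the chaperone BiP leaves the sensors IRE1, PERK and ATF6, which then raise the output of chaperones and degradation factors and slow translation. PERK is also among the kinases that phosphorylate the translation factor eIF2α, together with kinases that sense amino acid shortage, heme shortage or viral RNA. This shared step, the integrated stress response, lowers most protein synthesis while allowing translation of ATF4, which turns on genes of amino acid supply and, when stress lasts, the death-promoting factor CHOP. Fibroblasts secrete collagen in bulk and depend on this folding machinery. Splicing of Xbp1, phosphorylation of eIF2α, cleavage of ATF6 and translation of Atf4 cannot be read from gene counts, so the values that follow are transcript levels and not the activity of a branch.

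In brief, 9 of the 10 genes fell and Ddit3 rose when WT cells became senescent, beside 27% and 29.2% of all genes tested. Hspa5 and Hsp90b1, the ER chaperones, fell to less than 0.5 of their control level in WT cells. In KO cells 5 genes fell, 3 rose and 2 did not pass the test, where 28.6% of all genes fell and 28.5% rose. For 7 genes the response in KO cells was higher than in WT cells by 0.23 to 0.60 on the log2 scale, beside 9.24% of all genes. Some calls did not pass without some single libraries: the falls of Chac1 and Dnajb9 in WT cells, the fall of Asns and rise of Chac1 in KO cells, and the difference in response of Xbp1. In senescent cells 7 of the 10 genes were at higher levels in KO than in WT, beside 11.9% of all genes. These were Atf4, Asns, Trib3, Chac1, Ddit3, Dnajb9 and Xbp1. In control cells Ddit3 was also higher in KO and Dnajb9 was lower, while Atf4, Asns, Trib3, Chac1 and Xbp1 did not pass. The calls of Xbp1 in senescent cells and of Ddit3 and Dnajb9 in control cells did not pass without some single libraries.

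Total counts were 23923030 to 31736083 per library, so that 3 counts, taken as the detection floor, equalled 0.0945 to 0.125 CPM, or counts per 1000000 counts of the library. The CPM levels that follow were computed on totals adjusted with TMM, a trimmed mean of the log ratios between libraries. The 10 genes had 280 to 79266 counts in a library, and their coefficient of variation within a group was 0.349% to 16.8%. Arntl, which encodes BMAL1, was at 29.8 to 33.2 CPM in control and 35.2 to 37.4 CPM in senescent WT libraries and at 11.8 to 15.2 and 25.3 to 27.5 CPM in those of KO cells, so it was lower in KO cells but still counted. Fibroblast markers (9 genes, collagens included) summed to 20020 to 20830 CPM in control and 9844 to 10252 CPM in senescent WT libraries and to 24978 to 26343 and 11733 to 12151 CPM in those of KO cells. The sum did not stand for every gene of that list, since in WT cells 5 of the 9 rose with senescence and 4 fell, Dcn at 3.37 and Col1a1 at -2.06 on the log2 scale. Markers of cartilage cells (7 genes) summed to 6945 to 8597, 1840 to 2135, 4537 to 6193 and 582 to 676 CPM in the same order, and 6 genes of dividing cells to 1285 to 1680, 133 to 143, 1472 to 1567 and 69 to 103 CPM. Skeletal muscle markers (5 genes) lay between 13.9 and 58.9 CPM in all libraries, and those of keratinocytes (6 genes), macrophages (6), endothelium (5) and melanocytes (5) between 1.94 and 19.3 CPM. No marker was without counts in all libraries. The part that these differences in marker levels had in the results was not tested, and in bulk RNA fewer cells of a type and less RNA per cell cannot be told apart. Each genotype was deposited as a table of its own, so that handling of a table and genotype cannot be told apart either, and the labels do not say whether replicates were separate cultures or animals, so that p-values measure the spread between these libraries only.

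Promoter sequences of the genes whose responses are compared show which of them carry elements known from these pathways. The ER stress response element (ERSE), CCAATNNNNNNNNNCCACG, is bound by ATF6 and NF-Y, and the C/EBP-ATF response element (CARE), TGATGNAA, is bound by ATF4 with its partners. From RefSeq (GRCm38.p6), 250 bases before and 50 after each transcript start were searched on both strands, and all 10 genes had an entry. ERSE was found in 2 of the 10, Hspa5 and Hsp90b1, against 0.119% of 32851 promoters. CARE was found in 4, namely Asns, Chac1, Herpud1 and Trib3, against 3.97% of promoters. The unfolded protein response element TGACGTGG, bound by XBP1, was found in 0 of the 10, against 0.676% of promoters, and the E-box CACGTG, to which BMAL1 binds with CLOCK, in 1, Dnajb9, against 7.15%. Matches of different motifs did not overlap in the 10 genes. A match is a description of the letters and not of binding. The stretches are printed 5′ to 3′ on the gene's strand, with the matches in capitals. The Hspa5 stretch is chr2:34771990-34772089 (plus strand, bases -100 to -1 from the start), with ERSE beginning 65 bases before the start. The Hsp90b1 stretch is chr10:86705525-86705664 (minus strand, -220 to -81), with ERSE beginning 212 bases before the start and a reverse-strand copy beginning 107 bases before it. The Asns stretch is chr6:7693210-7693309 (minus strand, -100 to -1), with CARE 23 bases before the start. The Chac1 stretch is chr2:119351032-119351131 (plus strand, beginning 210 bases before the start) and the Herpud1 stretch is chr8:94386279-94386378 (plus strand, beginning 150 bases before it), with CARE on the reverse strand beginning 193 and 112 bases before the start.
Hspa5: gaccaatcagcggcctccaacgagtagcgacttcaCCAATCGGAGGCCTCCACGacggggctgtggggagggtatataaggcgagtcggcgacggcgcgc
Hsp90b1: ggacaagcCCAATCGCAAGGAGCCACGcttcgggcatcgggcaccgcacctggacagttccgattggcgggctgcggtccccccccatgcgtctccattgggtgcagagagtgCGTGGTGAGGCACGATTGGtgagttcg
Asns: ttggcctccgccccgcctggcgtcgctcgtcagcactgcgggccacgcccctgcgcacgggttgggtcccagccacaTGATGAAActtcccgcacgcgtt
Chac1: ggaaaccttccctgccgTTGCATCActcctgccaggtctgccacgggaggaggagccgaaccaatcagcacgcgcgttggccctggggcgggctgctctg
Herpud1: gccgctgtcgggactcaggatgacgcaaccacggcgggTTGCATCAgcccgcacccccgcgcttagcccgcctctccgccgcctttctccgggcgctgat

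Per kilobase of exon, levels in WT control cells fell in the order Hsp90b1 (713 CPM per kb), Hspa5 (671), Atf4 (121), Xbp1 (60.5), Asns (54.5), Herpud1 (38.3), Dnajb9 (30.2), Ddit3 (12.1), Trib3 (10.5) and Chac1 (8.77 CPM per kb). The libraries of Hsp90b1 and Hspa5 overlapped, as did those of Trib3 and Chac1, and no other neighbours in this order did. ER chaperone transcripts were thus the most abundant of the 10, and transcripts of the genes that act late in the stress response were the least abundant.

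The first comparison asked how each gene behaved when WT cells and KO cells became senescent, and the interaction, the log2 fold change in KO cells less that in WT cells, asked whether the responses differed. A gene passed where the adjusted p of edgeR's quasi-likelihood F-test, corrected by Benjamini-Hochberg over all 17416 genes, was under 0.05, and was called a differentially expressed gene (DEG) where its log2 fold change was also over 1 in size. In WT cells 1 of the 10 genes rose and 9 fell, against 29.2% and 27% of all genes tested, and 3 were DEGs, against 17.4%. The median log2 fold change of the 10 was -0.50, against 0.02 for all genes. In KO cells 3 rose and 5 fell, against 28.5% and 28.6% of all genes, 2 were DEGs, against 18.8%, and the median was -0.12, against -0.00. In the interaction 7 were higher in KO cells and 0 lower, against 9.24% and 11.7% of all genes, and 0 were DEGs, against 3.66%. The median interaction was 0.35, against -0.03 for all genes.

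**Figure D1:**
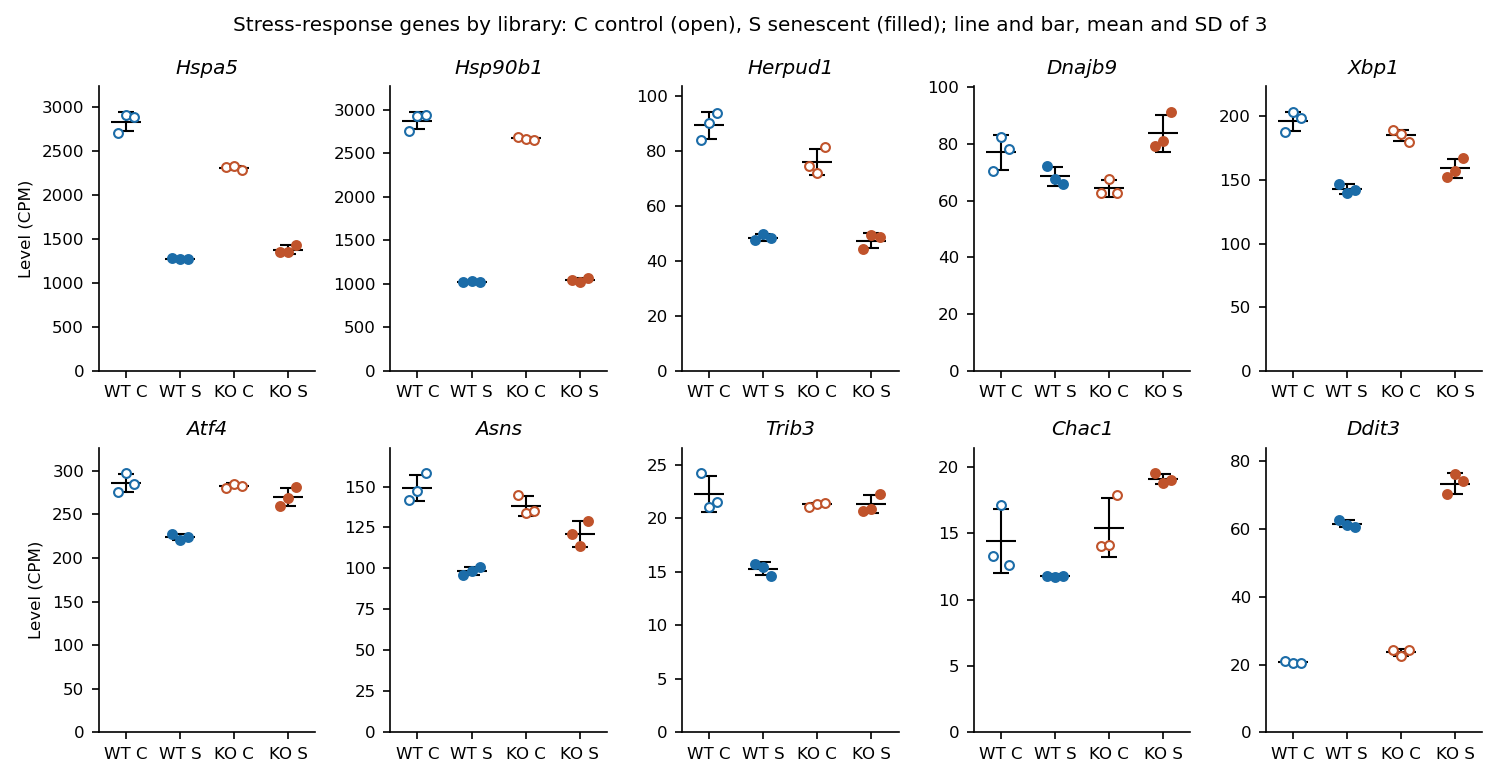
Level in CPM (vertical axes from 0) of the 10 genes in each of the 12 libraries, with the mean and SD of 3 libraries per group. Hspa5, Hsp90b1 and Herpud1 were lower in senescent than in control libraries of both genotypes, Ddit3 was higher in both, and Asns, Trib3 and Chac1 were higher in KO senescent than in WT senescent libraries.

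Hspa5 encodes BiP, the HSP70 chaperone of the ER lumen, which holds nascent proteins and keeps the stress sensors inactive (ENSMUSG00000026864, GRCm38 chromosome 2, 34771970 to 34777547, plus strand). Its level was 2708, 2909 and 2892 CPM in control and 1284, 1269 and 1279 CPM in senescent libraries of WT cells. In KO cells it was 2315, 2334 and 2288 CPM in control and 1349, 1354 and 1438 CPM in senescent libraries. All senescent libraries were below all control libraries of either genotype, and the KO control libraries lay below the WT control libraries. Hspa5 fell by 1.15 on the log2 scale (2.22-fold, SE 0.05, adjusted p = 1.52e-14) in WT cells and by 0.74 (1.68-fold, SE 0.05, adjusted p = 1.3e-11) in KO cells. The interaction was 0.41 (SE 0.07, adjusted p = 0.000199), and a smaller fall in KO cells went with a lower starting level there: KO control cells were below WT control cells by a log2 difference of -0.29 (adjusted p = 0.000136). Between senescent cells the difference was 0.11 (adjusted p = 0.0845), which passed under DESeq2 (0.14, adjusted p = 0.0074) and with DESeq2's size factors (adjusted p = 0.0356).

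Hsp90b1 encodes GRP94, the HSP90 chaperone of the ER, which folds a smaller set of secreted and surface proteins (ENSMUSG00000020048, chromosome 10, 86690209 to 86705509, minus strand). It was measured at 2761, 2924 and 2942 CPM in control and 1027, 1031 and 1024 CPM in senescent libraries of WT cells. For KO cells the values were 2687, 2669 and 2654 CPM in control and 1050, 1025 and 1065 CPM in senescent libraries. The senescent groups overlapped each other and lay far below the control groups, which did not overlap. Hsp90b1 fell by 1.48 (2.8-fold, SE 0.04, adjusted p = 3.35e-16) in WT cells and by 1.35 (2.55-fold, SE 0.04, adjusted p = 6.82e-16) in KO cells, the largest fall among the 10 genes in each genotype. The interaction of 0.13 (SE 0.06, adjusted p = 0.139) did not pass with edgeR but did with DESeq2 (0.16, adjusted p = 0.0109). Of its exon bases, 632 (15.7%) lie under exons of 1810014B01Rik on the opposite strand or of Gm15344 and Gm25745 on the same strand, and whether counting used strand is not given in the sources used here.

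Dnajb9 encodes ERdj4, a J-domain partner of BiP that recruits it to misfolded proteins and to IRE1 (ENSMUSG00000014905, chromosome 12, 44205559 to 44210326, minus strand). Its level was 70.4, 82.5 and 78.1 CPM in control and 72.3, 67.6 and 65.9 CPM in senescent libraries of WT cells, which overlapped. In KO cells it was 62.7, 67.7 and 62.6 CPM in control and 79.2, 80.9 and 91.2 CPM in senescent libraries. All KO senescent libraries were above all KO control libraries, and the control groups were in the opposite order to the senescent groups. Dnajb9 fell by 0.17 (SE 0.07, adjusted p = 0.0396) in WT cells, and it rose by 0.38 (SE 0.07, adjusted p = 4.99e-05) in KO cells, so that this BiP partner moved against BiP itself there. The interaction was 0.55 (SE 0.09, adjusted p = 0.000395). The fall in WT cells did not pass without WT control replicate 2 (-0.12, adjusted p = 0.182) or 3 (adjusted p = 0.0819), or without WT senescent replicate 2 (adjusted p = 0.107) or 3 (adjusted p = 0.145).

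Herpud1 encodes an ER membrane protein that assembles the complex for degradation of misfolded proteins (ENSMUSG00000031770, chromosome 8, 94386438 to 94395377, plus strand). It was at 84, 90.2 and 93.8 CPM in control and 47.6, 49.8 and 48.2 CPM in senescent libraries of WT cells. KO cells had 74.5, 72.1 and 81.4 CPM in control and 44.3, 49.4 and 48.6 CPM in senescent libraries. As with Hsp90b1, the senescent groups of the genotypes overlapped and the control groups did not. The gene fell by 0.88 (1.84-fold, SE 0.06, adjusted p = 1.07e-10) in WT cells and by 0.68 (1.6-fold, SE 0.06, adjusted p = 6.07e-09) in KO cells. Its interaction was 0.20 (SE 0.09, adjusted p = 0.113), and it passed without KO senescent replicate 1 (0.25, adjusted p = 0.0487).

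Xbp1 encodes the transcription factor that IRE1 activates by splicing its mRNA (ENSMUSG00000020484, chromosome 11, 5520659 to 5525893, plus strand). Spliced and unspliced forms were counted together. The level was 188, 203 and 199 CPM in control and 147, 140 and 142 CPM in senescent libraries of WT cells. The KO values were 189, 186 and 180 CPM in control and 152, 157 and 167 CPM in senescent libraries. The control groups overlapped and the senescent groups did not, with KO cells higher. Xbp1 fell by 0.46 (SE 0.05, adjusted p = 1.22e-07) in WT cells and by 0.22 (SE 0.05, adjusted p = 0.000741) in KO cells. The interaction of 0.23 (SE 0.07, adjusted p = 0.0242) did not pass without WT control replicate 2, WT senescent replicate 2 or 3, KO senescent replicate 3, or either of KO control replicates 2 and 3 (adjusted p = 0.0524 to 0.0809), nor without the filter on low counts (adjusted p = 0.0579).

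Atf4 encodes the transcription factor at the centre of the integrated stress response, which is set mainly by translation (ENSMUSG00000042406, chromosome 15, 80255184 to 80257541, plus strand). Its mRNA was at 276, 297 and 285 CPM in control and 227, 221 and 224 CPM in senescent libraries of WT cells. In KO cells it was 280, 285 and 282 CPM in control and 260, 269 and 281 CPM in senescent libraries, which overlapped. The WT senescent libraries were the lowest of the 4 groups. Atf4 fell by 0.36 (SE 0.05, adjusted p = 1.84e-06) in WT cells, and in KO cells its log2 fold change was -0.06 (SE 0.05, adjusted p = 0.261). The interaction was 0.29 (SE 0.07, adjusted p = 0.00417).

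Asns encodes asparagine synthetase, a target of ATF4 that makes asparagine from aspartate and glutamine (ENSMUSG00000029752, chromosome 6, 7675169 to 7693254, minus strand). It was at 142, 147 and 158 CPM in control and 96.1, 98.6 and 101 CPM in senescent libraries of WT cells. For KO cells the values were 145, 134 and 135 CPM in control and 121, 114 and 129 CPM in senescent libraries. The WT senescent libraries were the lowest, the KO senescent libraries lay between them and the control libraries, and the control groups overlapped. Asns fell by 0.60 (1.51-fold, SE 0.06, adjusted p = 1.32e-08) in WT cells and by 0.18 (1.14-fold, SE 0.06, adjusted p = 0.00849) in KO cells. The interaction was 0.41 (SE 0.08, adjusted p = 0.00107). The fall in KO cells did not pass without KO senescent replicate 2 (-0.14, adjusted p = 0.0591).

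Trib3 encodes a pseudokinase that ATF4 and CHOP induce and that damps both (ENSMUSG00000032715, chromosome 2, 152337422 to 152344032, minus strand). Its level was 24.2, 21.1 and 21.5 CPM in control and 15.7, 15.5 and 14.6 CPM in senescent libraries of WT cells. KO cells had 21.1, 21.3 and 21.4 CPM in control and 20.7, 20.9 and 22.3 CPM in senescent libraries. The WT senescent libraries stood below the other 9, which overlapped. Trib3 fell by 0.54 (1.46-fold, SE 0.08, adjusted p = 4.23e-06) in WT cells, and in KO cells its log2 fold change was 0.00 (SE 0.08, adjusted p = 0.988). The interaction was 0.55 (SE 0.11, adjusted p = 0.00132).

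Chac1 encodes an enzyme that breaks down glutathione and is induced by ATF4 and CHOP (ENSMUSG00000027313, chromosome 2, 119351229 to 119354381, plus strand). Its level was 13.3, 17.1 and 12.6 CPM in control and 11.8, 11.7 and 11.8 CPM in senescent libraries of WT cells. The KO values were 14, 14.1 and 17.9 CPM in control and 19.5, 18.8 and 19 CPM in senescent libraries. The control groups each held a single library well above its partners (WT replicate 2 and KO replicate 3), while the senescent groups were tight and did not overlap. Chac1 fell by 0.29 (SE 0.11, adjusted p = 0.0369) in WT cells and rose by 0.32 (SE 0.11, adjusted p = 0.0178) in KO cells, and the interaction of 0.60 (SE 0.16, adjusted p = 0.00941) had the largest value of the 10. Without WT control replicate 2 the fall was 0.14 (adjusted p = 0.296), and it did not pass without any of the WT senescent replicates (adjusted p = 0.0724 to 0.0857). The rise in KO cells did not pass without KO control replicate 1 (0.25, adjusted p = 0.0769) or 2 (0.25, adjusted p = 0.0932).

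Ddit3 encodes CHOP, the transcription factor that promotes cell death when stress lasts (ENSMUSG00000025408, chromosome 10, 127290774 to 127296288, plus strand). It was at 21.1, 20.4 and 20.5 CPM in control and 62.7, 61.3 and 60.7 CPM in senescent libraries of WT cells. For KO cells the values were 24.2, 22.5 and 24.4 CPM in control and 70.2, 76.1 and 74 CPM in senescent libraries. None of the 4 groups overlapped another, and the senescent libraries were the highest in both genotypes. Ddit3 rose by 1.58 (2.98-fold, SE 0.06, adjusted p = 8.12e-15) in WT cells and by 1.63 (3.1-fold, SE 0.06, adjusted p = 2.61e-15) in KO cells, with an interaction of 0.06 (SE 0.08, adjusted p = 0.688). Its exons share 81 bases (4.73%) with exons of Gm4189 and Mars on the opposite strand. Mars, a tRNA synthetase gene, changed in the other direction, with a log2 fold change of -0.45 in KO cells (adjusted p = 4.16e-07).

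**Figure D2:**
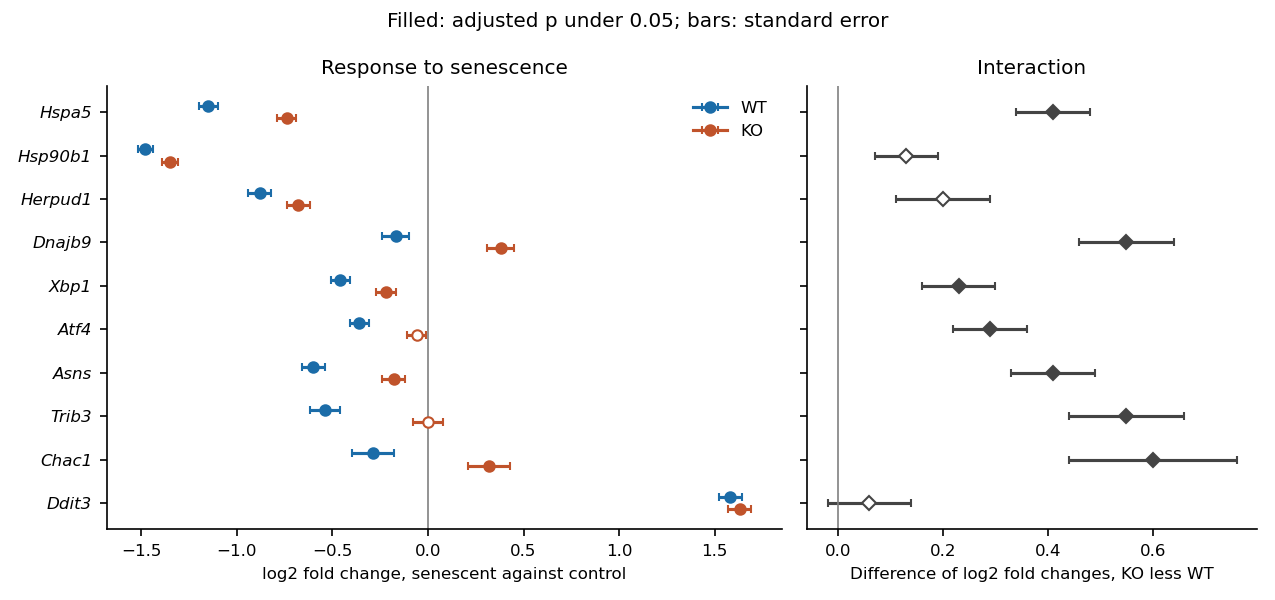
Left, log2 fold change of senescent against control cells in WT (blue) and KO (orange) with its standard error for each of the 10 genes, and right, the interaction (KO response less WT response). The interaction passed for 7 genes, all above 0, and the values of Hsp90b1, Herpud1 and Ddit3 did not pass.

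The next comparison asked whether the genotypes differed among control cells and among senescent cells. It used the same libraries as the senescence comparisons, so its values are set beside those and are no separate evidence. In control cells 1 of the 10 genes was higher in KO and 3 were lower, against 8.07% and 4.96% of all genes, and 0 were DEGs, against 2.54%. The median log2 difference was -0.10, against 0.01 for all genes. The 3 lower genes all act in the ER, namely Hspa5 (above), Dnajb9 (-0.26, adjusted p = 0.013) and Herpud1 (-0.23, adjusted p = 0.0134). Dnajb9 did not pass without WT control replicate 2 (adjusted p = 0.0687) or KO control replicate 3 (adjusted p = 0.068), nor did Herpud1 without WT control replicate 3 (adjusted p = 0.0594) or KO control replicate 2 (adjusted p = 0.0953). Ddit3 was higher by 0.20 (adjusted p = 0.0429), a call that most alternatives did not give, DESeq2 among them (0.19, adjusted p = 0.0637), and that was lost without KO control replicate 1 or 3, any WT control replicate or any WT senescent replicate (adjusted p = 0.0562 to 0.143). Hsp90b1 (-0.11, adjusted p = 0.119), Asns (-0.11, adjusted p = 0.211), Xbp1 (-0.09, adjusted p = 0.308), Trib3 (-0.07, adjusted p = 0.653), Atf4 (-0.02, adjusted p = 0.849) and Chac1 (0.09, adjusted p = 0.657) did not pass, although DESeq2 called Hsp90b1 (-0.11, adjusted p = 0.0202).

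In senescent cells 7 of the 10 genes were higher in KO than in WT and 0 were lower, against 11.9% and 11.8% of all genes, and 0 were DEGs, against 3.48%. The median log2 difference was 0.26, against -0.02 for all genes. The differences were 0.70 for Chac1 (1.62-fold, adjusted p = 8.8e-05), 0.48 for Trib3 (1.4-fold, adjusted p = 0.000103), 0.30 for Asns (adjusted p = 0.000537) and 0.27 for Atf4 (adjusted p = 0.000251), which are the ATF4 side of the response. Dnajb9 was higher by 0.29 (adjusted p = 0.00294), Ddit3 by 0.25 (adjusted p = 0.00186) and Xbp1 by 0.15 (adjusted p = 0.0373). Xbp1 did not pass without any of the WT senescent replicates nor without replicate 2 or 3 of either KO group (adjusted p = 0.0501 to 0.17), nor without the filter on low counts (adjusted p = 0.0879). Herpud1 (-0.03, adjusted p = 0.756) and Hsp90b1 (0.03, adjusted p = 0.712) had overlapping libraries and did not pass. Over the same senescent libraries the summed markers of cartilage and of dividing cells were lower in KO, as given above. The fibroblast sum was higher, but of its 9 genes 3 were higher and 3 lower (median -0.14), with Col1a1 higher by 0.76 and Lum lower at -1.06. The part of these markers was not tested.

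Other genes of the pathway were counted from lists, to set the 10 genes among their partners. Every list count stands beside the same shares of all genes tested. With senescence 29.2% rose and 27% fell in WT cells, and 28.5% rose and 28.6% fell in KO cells. In the interaction 9.24% were higher and 11.7% lower. In KO against WT, 8.07% were higher and 4.96% lower in control cells, and 11.9% and 11.8% in senescent cells. The ER chaperones and folding enzymes, 19 genes beside Hspa5 and Hsp90b1, were mostly lower in senescent than in control cells of each genotype. In WT cells 18 fell and 0 rose, with a median log2 fold change of -0.85, and in KO cells 17 fell and 1 rose, with the same median of -0.85. In WT cells the disulfide isomerases Pdia6 (-1.41, adjusted p = 8e-16) and P4hb (-1.37, adjusted p = 8.88e-16) fell, as did Creld2 (-1.54, adjusted p = 3.4e-15) and Manf (-1.44, adjusted p = 3.95e-15), which ER stress is known to induce. In KO cells Calr, the lectin chaperone calreticulin, fell by 1.20 (adjusted p = 2.61e-15) and Pdia4 by 1.21 (adjusted p = 3.65e-15). The gene that rose in KO cells was the ER oxidase Ero1l (0.36, adjusted p = 2.25e-06). In the interaction 6 of the 19 were higher and 1 lower, with a median of 0.10; Hyou1, the exchange factor of BiP, was higher by 0.42 (adjusted p = 0.00016) and Cnpy2 lower by a difference of -0.40 (adjusted p = 0.000934). KO control cells were lower in 8 of the 19 and higher in 0, Sdf2l1 (-0.51, adjusted p = 1.95e-06), Creld2 (-0.44, adjusted p = 7.69e-06) and Hyou1 (-0.36, adjusted p = 1.05e-05) among them, in the direction of Hspa5.

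Genes for entry of proteins into the ER mostly fell in both genotypes, and those for their removal from it mostly fell in WT cells. Of 14 translocon and signal peptidase genes, 12 fell and 1 rose in each genotype, with medians of -0.67 in WT and -0.45 in KO cells. Ssr2, a subunit of the translocon-associated complex, fell by 1.38 (adjusted p = 1.4e-14) in WT and by 1.17 (adjusted p = 1.43e-13) in KO cells, and Sec61a1, the channel itself, by 1.00 (adjusted p = 1.2e-13) and 0.66 (adjusted p = 8.52e-11). The interaction was higher in 4 of the 14 and lower in 0, with Spcs3 (0.55, adjusted p = 9.12e-05) and Sec61a1 (0.34, adjusted p = 0.000813) among them. In control cells 2 of the 14 were lower in KO and 0 higher, namely Spcs3 (-0.25, adjusted p = 0.00422) and Sec61a1 (-0.20, adjusted p = 0.00569). Of 15 genes of ER-associated degradation beside Herpud1, 11 fell and 2 rose in WT cells and 6 fell and 3 rose in KO cells, with medians of -0.30 and -0.10. Of all genes, 28.6% fell and 28.5% rose in KO cells. Edem1, which picks glycoproteins for removal, fell by 1.02 (adjusted p = 2.82e-13) in WT and by 0.83 (adjusted p = 6.29e-12) in KO cells. Herpud2, the relative of Herpud1, rose by 0.59 in both (adjusted p = 4.34e-08 and 3.75e-08), against the fall of Herpud1.

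Of the sensors and eIF2α kinases, 9 genes, 2 rose and 3 fell in WT cells, 1 rose and 2 fell in KO cells, beside 29.2% and 27% of all genes in WT and 28.5% and 28.6% in KO cells, and the medians were 0.03 and -0.04. Ern1, which encodes IRE1, rose by 0.25 (adjusted p = 0.00163) in WT and by 0.56 (adjusted p = 1.09e-07) in KO cells, and its interaction was 0.31 (adjusted p = 0.0151). Atf6 fell by 0.39 (adjusted p = 9.35e-06) in WT cells, and Eif2ak4, the amino acid sensor GCN2, fell by 0.43 (adjusted p = 2.62e-05) in WT and by 0.32 (adjusted p = 0.000673) in KO cells. In the interaction 2 were higher, Ern1 and Atf6 (0.25, adjusted p = 0.0365), and 2 lower, Eif2ak2 (-0.34, adjusted p = 0.0223) and Mbtps1 (-0.23, adjusted p = 0.0201). Eif2ak2, an eIF2α kinase gene, rose by 0.50 (adjusted p = 4.09e-06) in WT cells. Between senescent cells 1 of the 9 was higher in KO and 2 were lower, Eif2ak2 (-0.20, adjusted p = 0.0412) and Mbtps1 (-0.20, adjusted p = 0.00386). Of 10 genes of eIF2, eIF2B and the eIF2α phosphatases, 1 rose and 7 fell in WT cells, 3 rose and 2 fell in KO cells, and 6 were higher and 0 lower in the interaction (median 0.30). Of these 10, 3 were lower and 0 higher in KO than in WT control cells, and 3 were higher and 0 lower in senescent cells. Ppp1r15a, which encodes GADD34, the phosphatase subunit that CHOP and ATF4 induce, rose with Ddit3, by 1.07 (adjusted p = 3.17e-11) in WT and by 1.33 (adjusted p = 7.84e-13) in KO cells. Ppp1r15b, its constitutive counterpart, fell by 0.79 (adjusted p = 1.82e-11) and 0.66 (adjusted p = 2.5e-10).

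Genes of amino acid supply that ATF4 is known to drive went mostly the way of Asns. Of 19, 14 fell and 2 rose in WT cells, with a median of -0.86, and 12 fell and 4 rose in KO cells, with a median of -0.48. The mitochondrial one-carbon enzymes Shmt2 and Aldh1l2 fell by 1.61 (adjusted p = 6.78e-15) and 2.21 (adjusted p = 1.26e-13) in WT cells and by 1.33 (adjusted p = 8.95e-14) and 1.65 (adjusted p = 4.46e-12) in KO cells. In the interaction 12 of the 19 were higher and 0 lower, with a median of 0.42. The cystine transporter Slc7a11 had an interaction of 1.13 (adjusted p = 0.000107) and was at 7.48 ± 1.04 CPM (SD, n = 3) in control and 10.8 ± 1 CPM in senescent WT cells and at 6.68 ± 0.578 and 21.2 ± 1.93 CPM in those of the KO. The serine enzyme Psat1 (0.60, adjusted p = 0.000267) and the arginine transporter Slc7a1 (0.59, adjusted p = 1.62e-05) were also higher. In senescent cells 12 of the 19 were higher in KO than in WT and 0 lower. In control cells 5 were lower in KO and 2 higher, with Psat1 (-0.25, adjusted p = 0.0199) and Slc7a1 (-0.20, adjusted p = 0.00985) among the lower. Of 20 cytosolic tRNA synthetases, 18 fell and 0 rose in WT cells (median -0.46), 12 fell and 5 rose in KO cells (median -0.20), and 14 were higher and 0 lower in the interaction (median 0.31), with Rars at 0.57 (adjusted p = 0.000167), Nars at 0.54 (adjusted p = 7.16e-05) and Gars at 0.52 (adjusted p = 0.000212). In control cells 7 of the 20 were lower in KO and 0 higher, Rars (-0.23, adjusted p = 0.0167) and Nars (-0.24, adjusted p = 0.00525) among them. In senescent cells 10 were higher in KO and 0 lower.

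**Figure D3:**
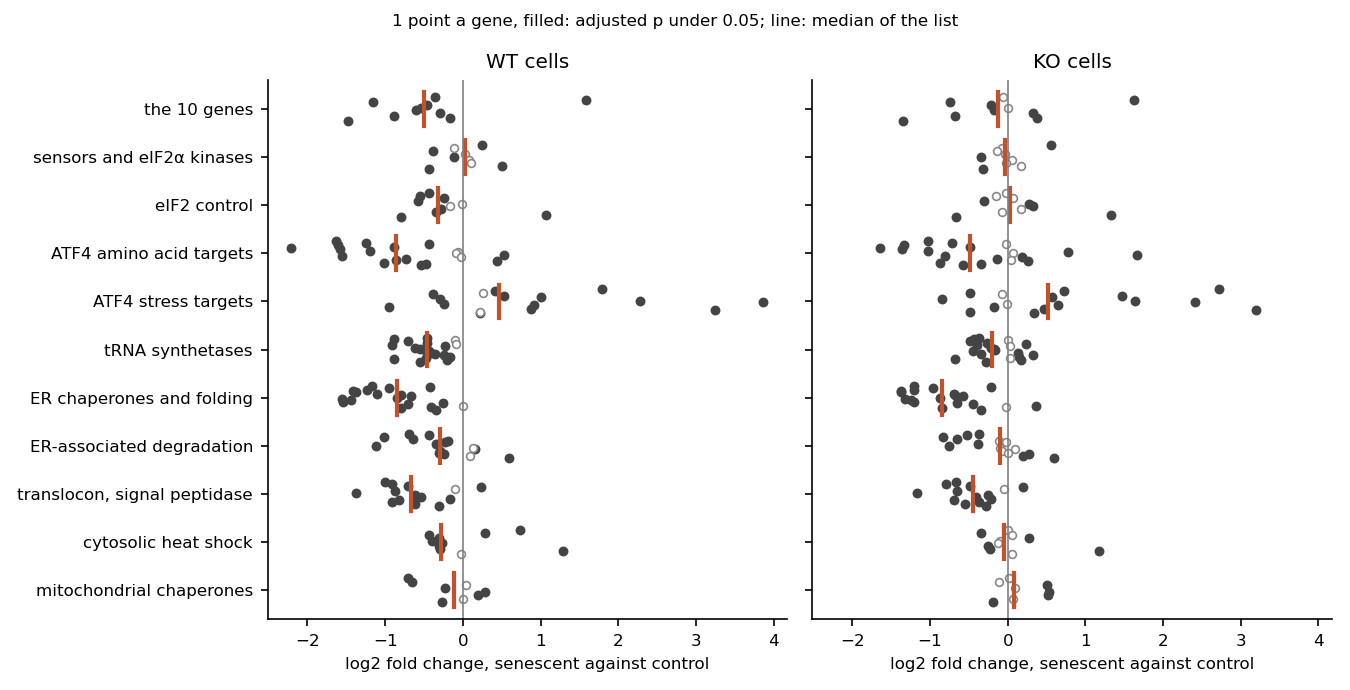
Log2 fold change of senescent against control cells in WT (left) and KO (right) for the 10 genes and 10 lists of pathway genes, with 1 point per gene (filled where it passed) and a line at the median. ER chaperones lay below 0 in both genotypes (median -0.85 in each), while ATF4 stress targets had medians of 0.47 and 0.52.

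Stress genes known as ATF4 targets went mostly with Ddit3, and which factor drove them was not tested. Of 16, 10 rose and 4 fell in each genotype, with medians of 0.47 in WT and 0.52 in KO cells. Pmaip1, which encodes the death factor NOXA and is also a p53 target, rose by 3.25 (9.5-fold, adjusted p = 1.47e-15) in WT and by 3.20 (9.22-fold, adjusted p = 3.96e-16) in KO cells. Sesn2, a stress sensor upstream of mTORC1 that p53 also drives, rose by 1.00 (adjusted p = 1.1e-11) in WT cells. Eif4ebp1, a brake on cap-dependent translation, fell by 0.95 (adjusted p = 3.29e-11) in WT cells. In the interaction 5 were higher and 5 lower: Nupr1, a stress-induced chromatin protein, by 0.94 (adjusted p = 4.69e-05) and Eif4ebp1 by 0.77 (adjusted p = 7.81e-06), against Ddit4 at -0.54 (adjusted p = 0.00127) and Sesn2 at -0.43 (adjusted p = 0.00121). Nupr1 was at 33.8 ± 1.67 CPM in control and 48.8 ± 3.79 CPM in senescent WT cells and at 34.9 ± 2.72 and 96.7 ± 12.6 CPM in those of the KO. KO control cells were higher than WT control cells in 7 of the 16 and lower in 2, with Bcl2l11, the death factor BIM, higher by 0.65 (adjusted p = 0.000413). In senescent cells 6 of the 16 were higher in KO than in WT and 1 was lower.

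Chaperones of other compartments were counted in the same way. Of 10 cytosolic heat shock genes, 3 rose and 6 fell in WT cells and 2 rose and 3 fell in KO cells, with medians of -0.28 and -0.05. The KO counts were near the shares of all genes there, 28.5% rising and 28.6% falling. The small heat shock gene Hspb1 rose by 1.29 (adjusted p = 9.4e-14) in WT and by 1.17 (adjusted p = 3.5e-13) in KO cells. In the interaction 3 of the 10 were higher and 2 lower. Hsp90aa1 (0.58, adjusted p = 0.000627) and Hspa8 (0.50, adjusted p = 0.000401) were among the higher. The lower were the stress-inducible Hspa1a (-0.73, adjusted p = 0.0104) and Hspa1b (-0.62, adjusted p = 0.00297), near-identical copies whose counts are uncertain. In control cells 1 of the 10 was higher in KO, Hspa1b (0.37, adjusted p = 0.0157). There 3 were lower, Hspa8 (-0.24, adjusted p = 0.011) and Hsp90aa1 (-0.24, adjusted p = 0.0339) among them. In senescent cells 3 of the 10 were higher in KO and 2 lower. Of 8 mitochondrial chaperones and proteases, 2 rose and 4 fell in WT cells, 3 rose and 1 fell in KO cells, and 5 were higher and 0 lower in the interaction (median 0.33), among them the chaperonin pair Hspd1 (0.72, adjusted p = 0.000751) and Hspe1 (0.54, adjusted p = 0.00463). In control cells 3 of the 8 were lower in KO and 0 higher, Hspd1 (-0.38, adjusted p = 0.00736) and Hspe1 (-0.30, adjusted p = 0.0287) among them. In senescent cells 3 were higher in KO and 0 lower, with Hspd1 at 0.34 (adjusted p = 0.00883), while Hspe1 did not pass (0.24, adjusted p = 0.0504).

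**Figure D4:**
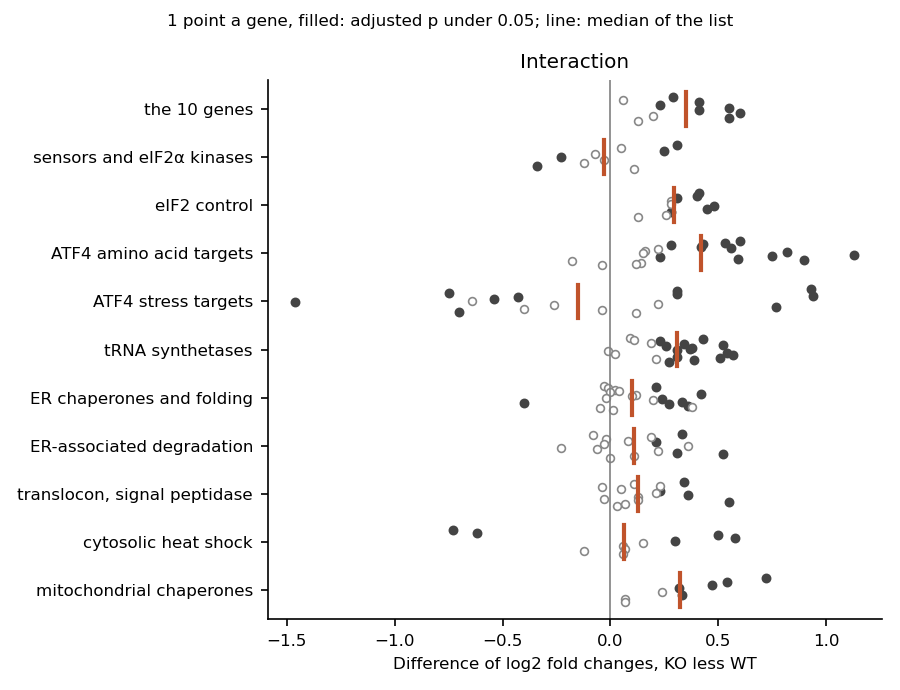
Interaction (log2 fold change in KO less that in WT cells) for the 10 genes and the same 10 lists, with 1 point per gene (filled where it passed) and a line at the median. Medians were 0.42 for ATF4 amino acid targets, 0.35 for the 10 genes, 0.31 for tRNA synthetases and 0.10 for ER chaperones.

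Genes with profiles most like those of Hspa5 and Asns were sought among 10936 other genes that averaged 5 CPM or more, by the root mean square difference of log2 CPM over the 12 libraries after centring each gene. Nearest to Hspa5 was Hyou1, at 0.053, followed by Ccdc134 at 0.066 and Tmed9 at 0.070, where Hspa5's own root mean square deviation was 0.488. Hyou1 was at 683 ± 20.3 CPM (SD, n = 3) in control and 318 ± 6.56 CPM in senescent WT cells and at 531 ± 14 and 330 ± 3.73 CPM in those of the KO. Its groups had the order of those of Hspa5, which a search for likeness favours by its nature. Nearest to Asns were Tpm3 at 0.034, Xpnpep1 at 0.044 and Ssr3 at 0.044, against its own deviation of 0.232. Tpm3, a tropomyosin gene, was at 652 ± 43.9, 444 ± 9.3, 613 ± 33.1 and 540 ± 28.6 CPM in the same order of groups.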

How the data were processed

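The authors made paired-end libraries from poly(A) RNA, trimmed reads with Trimmomatic 0.36, mapped them to GRCm38 with STAR 2.5.2b and deposited raw counts of uniquely mapped reads in exons, made with featureCounts, in a table per genotype. Strand use and annotation release are not given in the sources used here. Reads with several matches were dropped, which lowers counts of genes with near-identical copies. Groups came from the sample labels, and columns of no sample were 0.

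Both tables were joined and fitted in R 4.3.3 with edgeR 4.0.16 (filterByExpr, TMM, robust quasi-likelihood F-test, 4 group means over all 12 libraries, Benjamini-Hochberg over 17416 genes), after the test had been tested on simulated data. SE was the absolute log2 fold change divided by the square root of F. The thresholds, an adjusted p of 0.05 and a log2 fold change of 1, are those in the study's methods. Its results name another p cutoff for these libraries, so the DEG counts here are not comparable with its total. Exon lengths, positions and symbols came from GENCODE release M21, and promoters from RefSeq. The 10 genes and the lists were chosen with earlier results of these data known. Of each list, at most 4 genes per comparison were eligible for naming, those with the smallest adjusted p at a mean of at least 5 CPM. Ero1l in KO cells and the fibroblast markers Col1a1, Dcn and Lum were named after their values were seen. Profiles used log2 CPM with a prior count of 2. Detection floors cover counting error only, as reads carried no molecular identifiers. The 18 alternatives were DESeq2 1.42.0, its size factors, no filter on low counts, fits of only the groups compared, replicate blocks and leaving out each library. Same-numbered replicates were not treated as paired in the main fits. Correlations of their deviations ran from -0.125 to 0.127, which cannot show whether they shared an animal or culture.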

Additional observations from a re-analysis of the deposited data

Results flagged for a closer look

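For 7 of the 10 genes the response to senescence in KO cells differed from that in WT cells by the test of the difference itself (edgeR's interaction term over all 17416 genes). The log2 fold change in KO cells was higher by 0.29 for Atf4 (adjusted p = 0.00417), 0.41 for Hspa5 (adjusted p = 0.000199), 0.23 for Xbp1 (adjusted p = 0.0242), 0.55 for Trib3 (adjusted p = 0.00132), 0.41 for Asns (adjusted p = 0.00107), 0.60 for Chac1 (adjusted p = 0.00941) and 0.55 for Dnajb9 (adjusted p = 0.000395). The difference for Xbp1 kept its call in 9 of 17 alternatives (adjusted p up to 0.0809). Dnajb9 and Chac1 fell in WT cells and rose in KO cells, although both falls and the rise of Chac1 did not pass without some single libraries. For Hspa5 the levels of the senescent groups were 1277 ± 7.66 CPM in WT and 1380 ± 50.2 CPM in KO cells (SD, n = 3), and those of the control groups 2836 ± 111 and 2312 ± 22.9 CPM, so that the control groups were further apart than the senescent groups. For Trib3 and Atf4 the senescent groups were further apart, at 15.3 ± 0.586 against 21.3 ± 0.846 CPM and at 224 ± 3.07 against 270 ± 10.6 CPM.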

How the results depend on the processing

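Of 870 values of the 10 genes under alternative settings, 806 kept their direction and side of the threshold, 45 no longer passed, 5 newly passed and 14 changed sign, all 14 in differences that had not passed. The number of genes higher in KO than in WT control cells was 1 (Ddit3) and became 0 with DESeq2, with its size factors, without the filter on low counts, with only the groups compared and with the replicate block, and 0 to 1 when a library was left out. The labels link replicates of different groups by number only. The paired fits with a replicate block within each genotype also lost Xbp1 in the interaction (adjusted p = 0.0625) and Dnajb9 in WT cells (adjusted p = 0.0627). When a library was left out, 7 to 9 genes fell in WT cells, 2 to 3 rose and 4 to 5 fell in KO cells, and 6 to 8 were higher in the interaction and 6 to 7 in KO senescent cells. DESeq2 gave 8 in the interaction and 8 in KO senescent cells, and the fit without the filter on low counts gave 6 and 6, with Xbp1 lost in both. The counts of DEGs stayed at 3, 2, 0, 0 and 0 in the 5 comparisons under every setting. Signs turned for Trib3 in KO cells (-0.01 without the filter, -0.03 to 0.03 with a library left out), Atf4 (-0.04 to 0.01) and Chac1 (-0.02 to 0.24) between control cells, and Herpud1 between senescent cells (-0.06 to 0.02). Other scalings shifted the median of all genes by at most 0.030. Of 1914 counts for the lists, 142 moved by over 1.5 times or went to or from 0. The cause of these changes was not tested. Chac1, with 280 counts in its lowest library, had the widest spread between replicates (16.8%).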
